A study of Mus musculus with 6 samples.

Results

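The transcripts described here were those of the cytosolic chaperones of the Hsp70, Hsp110 and Hsp90 families, their germ cell forms included, and of the heat shock factors that control them. They were taken by gene symbol from the count table: 10 genes of 54532, namely Hspa2, Hspa8 and Hspa1l (Hsp70), Hspa4, Hspa4l and Hsph1 (Hsp110), Hsp90aa1 and Hsp90ab1 (Hsp90), and Hsf1 and Hsf2. RNA-seq was performed on leptotene/zygotene spermatocytes (L/Z), cells in early meiotic prophase that were enriched by FACS after Hoechst staining from testes of mice at 12 dpp (days postpartum). Eef1g-cKO mice carried floxed Eef1g on a C57BL/6J background, and internal exons were deleted by Stra8-GFPCre, which is active in germ cells from the onset of differentiation, and the gene codes for the gamma subunit of elongation factor eEF1. Controls were littermates, labelled as wild type, and there were 3 libraries per genotype. The labels do not say whether each library came from a separate animal, so p-values measure the spread between these libraries, which may be partly technical.

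Hsp70 proteins bind unfolded stretches of client proteins and release them on exchange of nucleotide. J-domain proteins stimulate the ATP hydrolysis that locks the client in place, Hsp110 proteins act as exchange factors that free it, and Hsp90 takes over clients that are nearly folded. Under protein-damaging stress HSF1 forms trimers that bind heat shock elements, inverted repeats of the bases GAA, and raises transcription of the inducible members, while HSF2 acts in germ cell development. Male germ cells use forms of their own: HSPA2 is the Hsp70 of meiotic and postmeiotic cells and is needed for the assembly of CDK1 with cyclin B1, HSPA4L is abundant in testis, and loss of Hsp90aa1 arrests male meiosis.

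The libraries held between 763133 and 2617648 reads assigned to genes, the fewest in Eef1g-cKO replicate 3, which also had the highest share of ribosomal RNA reads (9.23%, against 2.73% in the lowest library). Values below are CPM (reads per 1000000, after TMM scaling of library sizes). Eef1g itself was at 218, 222 and 208 CPM in controls and at 137, 148 and 117 CPM in Eef1g-cKO libraries (edgeR log2 fold change -0.68 with SE 0.20, adjusted p = 0.029). The genotypes did not overlap, but the call was lost in 8 of 17 other settings, among them the fits without control replicate 1 (adjusted p = 0.11), 2 (0.124) or 3 (0.0919) and without Eef1g-cKO replicate 1 (0.084). All 10 L/Z markers examined were detected, and their summed level ran from 9628 to 10706 CPM in controls and from 19685 to 24925 CPM in Eef1g-cKO libraries, 6 of them higher and 1 lower. Markers of other cells that the gate could hold were lower in Eef1g-cKO libraries: spermatogonia (1362 to 1566 against 660.3 to 782.4 CPM, 4 of 5 tested markers lower), Sertoli cells (198.5 to 492.0 against 68.1 to 86.4 CPM, 3 of 5) and peritubular and stromal cells (185.0 to 316.1 against 22.7 to 77.7 CPM, 4 of 5). Pachytene and later germ cell markers summed to 25.2 to 43.4 against 3.03 to 17.5 CPM (1 of 2 tested markers lower), with Adam3, Acr and Acrv1 at 0. Leydig cell markers summed to at most 10.5 CPM, with Cyp17a1 and Hsd3b1 at 0, and blood and macrophage markers to at most 74.3 CPM, with Cd68 and Csf1r at 0. In bulk libraries fewer cells of a type and less RNA per cell cannot be told apart.

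Of the 10 genes, 9 had enough reads to be tested and Hspa1l had none. No member was higher and 2 were lower in Eef1g-cKO spermatocytes, Hspa8 and Hsp90ab1 (edgeR, adjusted p under 0.05), against 7.8% of all 8513 tested genes higher and 6.01% lower. Neither passed an absolute log2 fold change of 1, as 8.38% of all tested genes did in either direction. At an unadjusted p under 0.05 the count was 3, with Hsp90aa1 as the third. The median log2 fold change of the 9 tested members was -0.04, beside -0.05 for all tested genes, and 4 were above 0 and 5 below it.

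**Figure D1:**
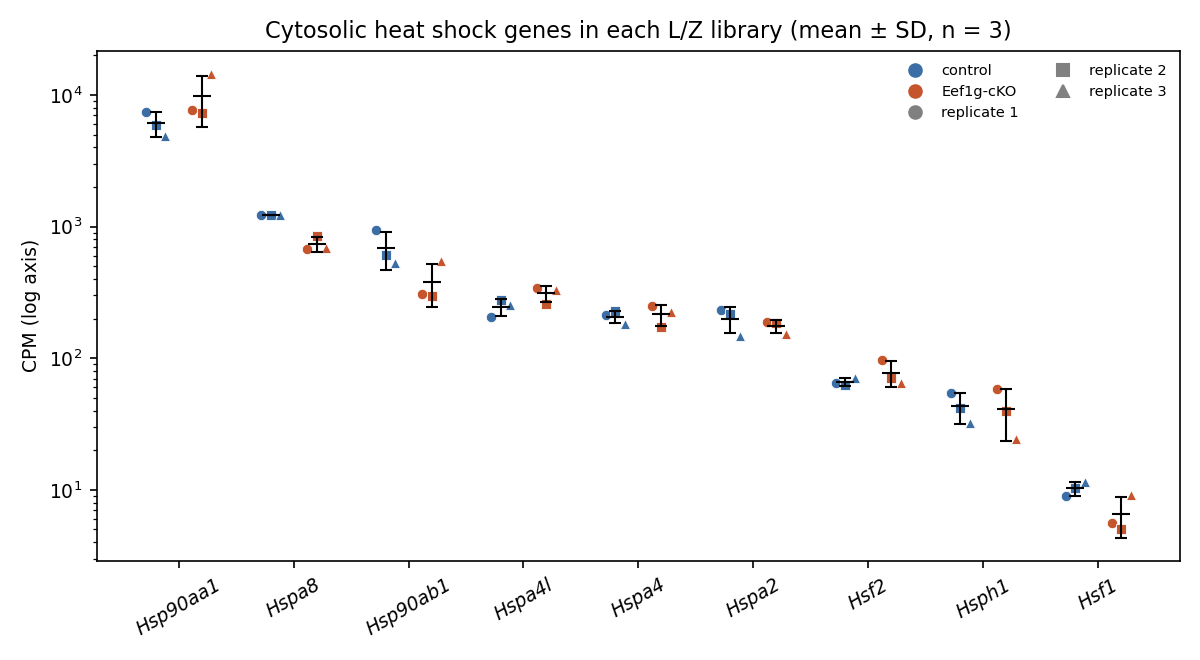
CPM of the 9 members with reads (log axis) in each control (blue) and Eef1g-cKO (orange) library, with marker shape for the replicate and black bars for mean ± SD, n = 3. Hspa8 is the member whose groups do not overlap, and Eef1g-cKO replicate 3 stands at 14431 CPM for Hsp90aa1; Hspa1l had no read and is not drawn.

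The most alike coding stretches of the 2 main paralog pairs are shown first, because the results turn on telling these relatives apart by their reads. Capitals mark the 5 of 60 bases that differ within each pair. The coding sequences are from GENCODE M21 (GRCm38), with positions counted from the A of the start codon.
Hspa2, coding bases 1405 to 1464: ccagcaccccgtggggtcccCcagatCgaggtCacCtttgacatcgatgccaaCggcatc
Hspa8, coding bases 1396 to 1455: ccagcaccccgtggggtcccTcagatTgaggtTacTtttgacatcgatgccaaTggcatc
Hsp90aa1, coding bases 40 to 99: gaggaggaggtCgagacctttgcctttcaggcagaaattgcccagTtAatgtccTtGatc
Hsp90ab1, coding bases 25 to 84: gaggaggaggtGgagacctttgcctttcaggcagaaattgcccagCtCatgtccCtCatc
Over the whole coding sequence Hspa2 and Hspa8 shared 75.5% of aligned bases, with a longest identical run of 20 bases, and Hsp90aa1 and Hsp90ab1 shared 76.2%, with a longest run of 33 bases. A 100-base window of Hspa2 or of Hsp90ab1 was never found in the transcript of another gene (0 of 2427 and 0 of 2421 windows). Near-identical copies existed for other members. For Hspa8, 63.4% of windows were found in 9 predicted genes, and for Hsp90aa1 47.6% were found in 3. The copies held few reads: those of Hsp90aa1 between 2.72% and 4.32% of its own count in each library, and those of Hspa8 between 0.136% and 1.29%. How the counting treated reads with several alignments is not given in the sources used here. Reads dropped for this reason would be missing from gene and copies alike. For instance, Gm15459 shared 1342 windows with Hspa8 and held 0 reads. The shares above therefore do not bound the uncertainty of the Hspa8 and Hsp90aa1 levels. Hspa4, Hspa4l, Hsph1, Hsf1 and Hsf2 shared no window with another gene.

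Hspa2 (GRCm38 chr12:76404176-76406938, plus strand), with 1 exon in its annotated transcript, was read at a moderate level in both genotypes. It stood at 234, 216 and 148 CPM in controls (199 ± 45.0, SD, n = 3) and at 188, 186 and 152 CPM in Eef1g-cKO libraries (175 ± 20.6). Control replicate 3 and Eef1g-cKO replicate 3 were the lowest of their groups, and the groups overlapped. The log2 fold change was -0.18 ± 0.22 (SE; edgeR, adjusted p = 0.647), so no change in Hspa2 mRNA was detected at this depth of 100 to 484 reads per library. Correction for GC content turned the sign, to 0.08, and over the 17 other settings the value ran from -0.35 to 0.08 with no call. By reads in controls Hspa2 ranked 891 among 19585 genes with a read there.

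The genes whose log2 CPM followed Hspa2 most closely over the 6 libraries were Tef, Cdca2, Mtf1, Arih1 and Ebna1bp2, with Pearson r of 0.997, 0.994, 0.988, 0.984 and 0.972 among 4713 genes compared. With 6 points that share library depth and composition, these values are a description. Like Hspa2, each of the 5 had its lowest value in replicate 3 of both groups, a likeness that picking them by correlation with Hspa2 favours. Tef, for example, was at 82.4, 67.0 and 23.6 CPM in controls and 47.6, 41.2 and 24.3 CPM in Eef1g-cKO libraries.

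Hspa8, the constitutive Hsp70 of most cells (chr9:40800984-40810087, plus strand), was lower in Eef1g-cKO spermatocytes. It was at 1216, 1220 and 1221 CPM in controls and at 677, 848 and 682 CPM in Eef1g-cKO libraries. All 3 Eef1g-cKO values lay below all 3 control values, a pattern that 34.5% of tested genes showed in either direction and Hspa8 alone of the 9 members. The log2 fold change was -0.73 ± 0.15 (SE; edgeR, adjusted p = 0.00257). The call held in all 17 other settings, with log2 fold changes from -0.90 to -0.64 and adjusted p up to 0.0286, and in each fit without 1 library. The control values lay closer together (SD 2.79 CPM) than counting error alone would place them (25.1 to 30.2 CPM per library), so their own spread understates the error. Spermatogonial, Sertoli and stromal marker levels moved in the same direction, and their part in the lower Hspa8 was not tested.

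Hspa1l (chr17:34972703-34979285, plus strand), the Hsp70 of later, haploid germ cells, had 0 reads in all 6 libraries. A count of 0 allows up to 3 reads, or between 1.15 and 4.55 CPM depending on the library, and this covers counting error only. Of its 100-base windows 70.8% were also found in transcripts of Gm10501, Hspa1a or Hspa1b, which held 17, 19 and 69 reads over all libraries. For that part a loss of ambiguous reads in counting cannot be told apart from absence. The remaining windows were found in no other gene's transcript, and no read was counted there either. The inducible pair beside it was sparse too. Hspa1b had 9, 11 and 27 reads in controls and 7, 10 and 5 in Eef1g-cKO libraries, and Hspa1a had 4, 4 and 6 against 0, 5 and 0. Neither passed the filter on low counts, and their coding sequences are 99.6% identical with a longest shared run of 638 bases, so their reads can be split between them. Of their 100-base windows 49.9% for Hspa1b and 56.5% for Hspa1a were found in transcripts of other genes. Ambiguous reads may thus also be missing from both counts. Of 5 other cytosolic Hsp70 genes listed only Hspa14, a ribosome-associated form, was tested, at 93.9 ± 18.3 CPM in controls and 82.4 ± 13.7 CPM in Eef1g-cKO libraries (log2 fold change -0.18 ± 0.27, adjusted p = 0.711).

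Because Hspa2 and Hspa8 were read in the same libraries, their ratio needs no scaling between libraries. The Hspa2 to Hspa8 read ratio was 0.193, 0.177 and 0.122 in controls and 0.278, 0.220 and 0.223 in Eef1g-cKO libraries. Every Eef1g-cKO ratio was above every control ratio, by 1.49-fold on average, and Hspa8 was the member of the pair that was called. A 2-sided exact permutation test gave p = 0.1, the smallest that 3 against 3 libraries allow, and 0.25 after Benjamini-Hochberg adjustment over the 5 ratios computed. Without control replicate 3 the log2 difference of 0.57 became 0.37. When the reads counted at the Hspa8 copies were added, it was 0.57, which does not cover reads dropped in counting. A ratio within a library still depends on the mix of cells, and the cell type marker levels differed between genotypes. Their part in this ratio was not tested.

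The Hsp110 genes, whose proteins exchange nucleotide on Hsp70, were not called in either direction. Hspa4 (chr11:53259814-53300457, minus strand), the widely expressed form, was at 213, 227 and 181 CPM in controls and 250, 174 and 223 CPM in Eef1g-cKO libraries. The groups overlapped fully, and the log2 fold change was 0.05 ± 0.20 (SE; edgeR, adjusted p = 0.898). Its sign changed with upper-quartile or library-total scaling. Hspa4l (chr3:40744495-40796103, plus strand), its testis-rich relative, was at 205, 276 and 253 CPM in controls and 342, 260 and 329 CPM in Eef1g-cKO libraries. Replicates 1 and 3 of Eef1g-cKO lay above all controls and replicate 2 lay among them (log2 fold change 0.34 ± 0.19, adjusted p = 0.256), and with a GC content correction the difference was -0.00. Hsph1 (chr5:149614287-149636376, minus strand), the heat-inducible Hsp110, was at 54.7, 41.7 and 32.4 CPM in controls and 58.7, 39.6 and 24.3 CPM in Eef1g-cKO libraries. Both groups spread widely and overlapped (log2 fold change -0.04 ± 0.39, adjusted p = 0.958, sign not stable across settings).

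The Hspa4l to Hspa4 read ratio was 0.965, 1.22 and 1.40 in controls and 1.37, 1.496 and 1.48 in Eef1g-cKO libraries, and the Hsph1 to Hspa4 ratio was 0.258, 0.185 and 0.180 against 0.236, 0.229 and 0.112. Both overlapped between genotypes (exact permutation p = 0.2 and p = 0.8, 2-sided). Within the family, Hspa4l and Hspa4 were thus read at similar counts and Hsph1 at a small part of either. Summed, the 3 Hsp110 genes came to 495 ± 42.9 CPM in controls and 567 ± 89.3 CPM in Eef1g-cKO libraries (SD, n = 3).

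Hsp90aa1 (chr12:110690605-110702728, minus strand), the inducible cytosolic Hsp90, was by far the most abundant member and ranked 4 among all genes by CPM in controls. It was at 7424, 5932 and 4896 CPM in controls and at 7637, 7266 and 14431 CPM in Eef1g-cKO libraries. Eef1g-cKO replicate 3, the shallowest library, was nearly as high as the other 2 together, and replicate 2 lay below control replicate 1, so the groups overlapped. The log2 fold change was 0.68 ± 0.27 (SE; edgeR, adjusted p = 0.136). The direction was the same in all 17 other settings, from 0.33 without Eef1g-cKO replicate 3 to 0.86 without control replicate 1. The call was not: 6 settings called Hsp90aa1 higher, among them DESeq2 (adjusted p = 0.0286) and limma-voom with quality weights (adjusted p = 0.00756). Also among them were the fits without Eef1g-cKO replicate 1 (adjusted p = 0.0475) or 2 (0.0377). The summed L/Z marker level differed in the same direction as Hsp90aa1, and its part was not tested.

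Hsp90ab1, the constitutive cytosolic Hsp90 (chr17:45567775-45573271, minus strand), went the other way. It was at 941, 603 and 525 CPM in controls and at 306, 298 and 543 CPM in Eef1g-cKO libraries. Replicates 1 and 2 of Eef1g-cKO lay below all controls, while replicate 3 lay above control replicate 3. The log2 fold change was -0.86 ± 0.25 (SE; edgeR, adjusted p = 0.0293). The call was lost with a GC content correction (-0.70, adjusted p = 0.067), without control replicate 1 (-0.56, adjusted p = 0.178), without Eef1g-cKO replicate 1 (-0.72, adjusted p = 0.112) and without Eef1g-cKO replicate 2 (-0.71, adjusted p = 0.0982). As for Hspa8, the lower spermatogonial and somatic marker levels moved with it, and their part was not tested.

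Within a library the balance of the 2 cytosolic Hsp90 genes spread less between replicates than either level. The Hsp90aa1 to Hsp90ab1 read ratio was 7.89, 9.84 and 9.32 in controls and 24.9, 24.4 and 26.6 in Eef1g-cKO libraries. Hsp90aa1 exceeded Hsp90ab1 in all 6 libraries, and the excess was larger in every Eef1g-cKO library than in any control, by 2.82-fold on average (log2 difference 1.49; 2-sided exact permutation p = 0.1, the smallest possible, adjusted 0.25). Eef1g-cKO replicate 3, which was apart from its group for both genes, was not apart for the ratio, and without it the log2 difference was 1.46. Over all left-out libraries the difference ran from 1.40 to 1.56. With the reads counted at the Hsp90aa1 copies added, the genotypes still did not overlap, but reads dropped in counting could not be added. This ratio, too, depends on the mix of cells in a library. The part of the differing cell type marker levels in it was not tested.

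**Figure D2:**
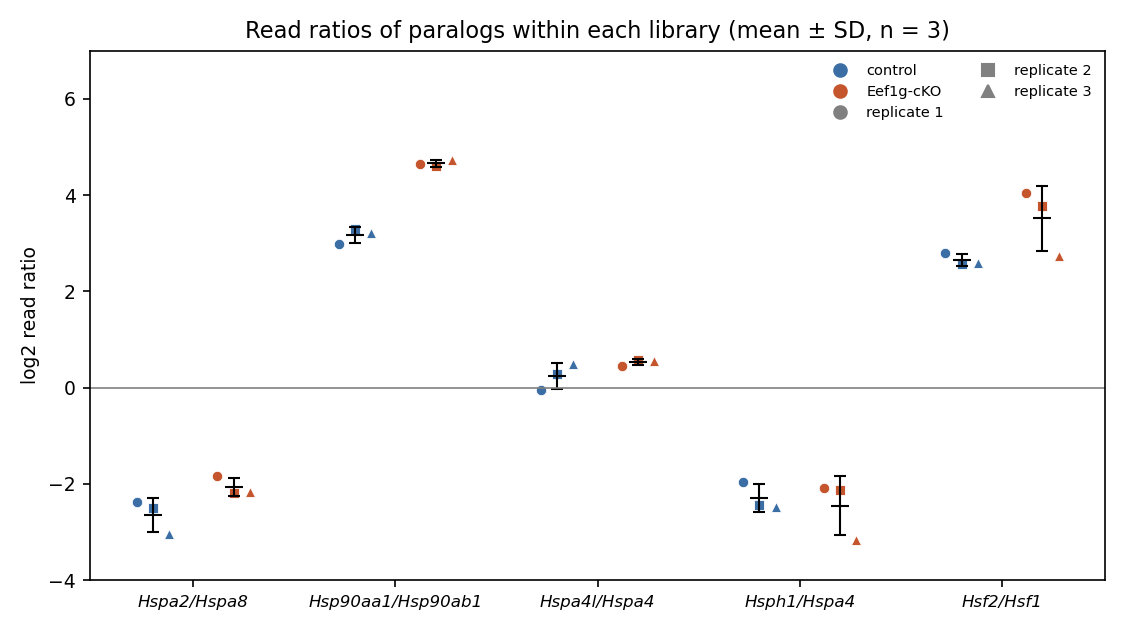
Log2 read ratios of 5 paralog pairs within each control (blue) and Eef1g-cKO (orange) library, with marker shape for the replicate and black bars for mean ± SD, n = 3. The Hsp90aa1/Hsp90ab1 and Hspa2/Hspa8 ratios do not overlap between genotypes, and the other 3 pairs do. By CPM, 34.5% of all tested genes did not overlap, and no such share was computed for ratios of other gene pairs.

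The factors were read at low levels. Hsf1 (chr15:76477422-76501913, plus strand), the stress-responsive factor, had 12, 20 and 21 reads in controls and 7, 13 and 6 in Eef1g-cKO libraries, or 8.99, 10.3 and 11.5 CPM against 5.56, 5.00 and 9.10 CPM. No difference was detected (edgeR log2 fold change -0.71 with SE 0.75, adjusted p = 0.587), and the highest Eef1g-cKO value lay just above the lowest control. Hsf2 (chr10:57486385-57513135, plus strand), the factor of germ cell development, was at 65.2, 62.3 and 70.9 CPM in controls and 97.6, 70.4 and 65.2 CPM in Eef1g-cKO libraries (log2 fold change 0.24 ± 0.29, adjusted p = 0.641, reversed by a GC content correction). Only Eef1g-cKO replicate 1 stood above the controls. Hsf2 had more reads than Hsf1 in every library, at ratios of 7, 5.93 and 6.02 in controls and 16.5, 13.6 and 6.69 in Eef1g-cKO libraries (exact permutation p = 0.2, 2-sided). Binding of either factor was not measured.

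**Figure D3:**
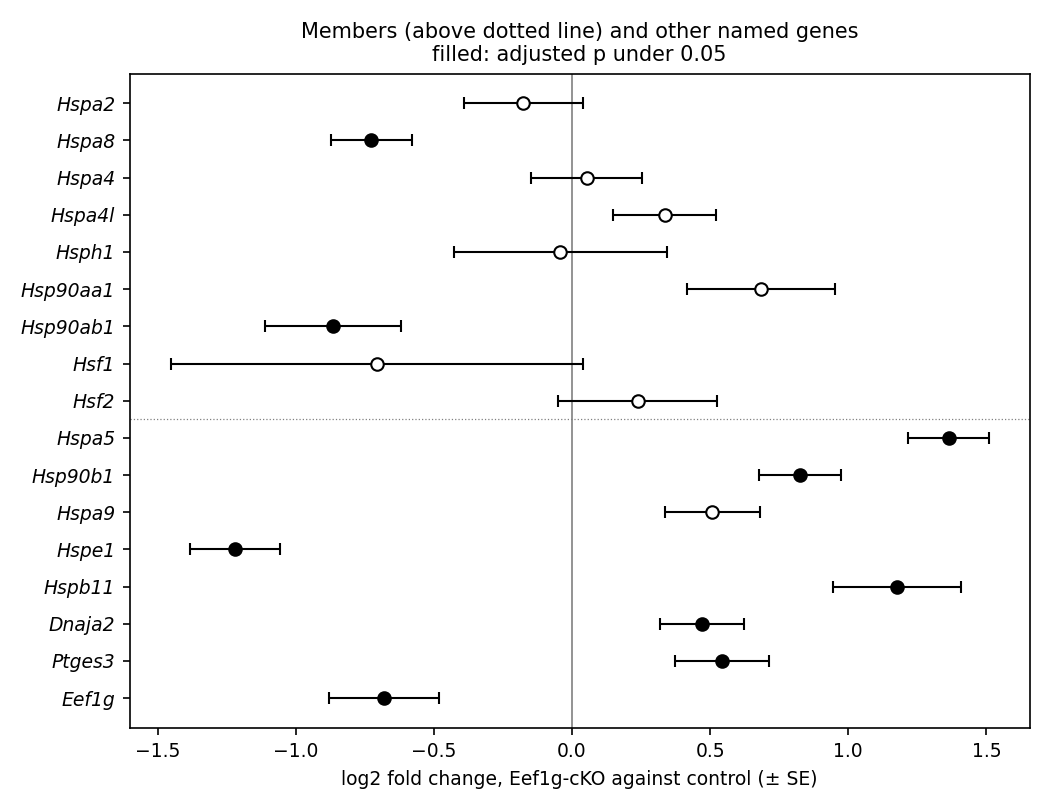
Log2 fold changes of Eef1g-cKO against control ± SE (edgeR) for the 9 tested members, above the dotted line, and for other named genes below it; filled points have an adjusted p under 0.05. Hspa8 and Hsp90ab1 are the filled members, both below 0, while Hspa5 and Hsp90b1 of the endoplasmic reticulum lie above 0.

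Levels can be compared between genes only per length, here as RPKM, CPM per kilobase of the gene length in the count table, in controls. Hsp90aa1 came first at 1548 ± 323 RPKM (SD, n = 3), followed by Hspa8 at 283 ± 0.648 and Hsp90ab1 at 230 ± 73.7, whose ranges overlapped. Hspa2 came next at 75.4 ± 17.03 RPKM, below the range of Hsp90ab1 and above that of Hspa4 at 37.4 ± 4.21. Hspa4l followed at 20.8 ± 3.05, then Hsf2 at 6.88 ± 0.453 and Hsph1 at 5.91 ± 1.54, which overlapped, and Hsf1 at 1.45 ± 0.180. The order of the means was the same in Eef1g-cKO libraries. Per kilobase of the longest coding transcript it was also the same, but the shorter Hsf2 transcript raised that gene to 25.4 RPKM, within the range of Hspa4l (21.7 to 29.1), and the ranges of Hspa8 and Hsp90ab1 no longer overlapped. Hspa2, the meiotic Hsp70, was thus read at 75.4 RPKM against 283 RPKM for the constitutive Hspa8 by gene length, and at 78.9 against 509 RPKM by transcript length. Unlike Hspa2, Hspa8 shared windows with other genes, so its level also depends on how multiply aligned reads were counted.

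**Figure D4:**
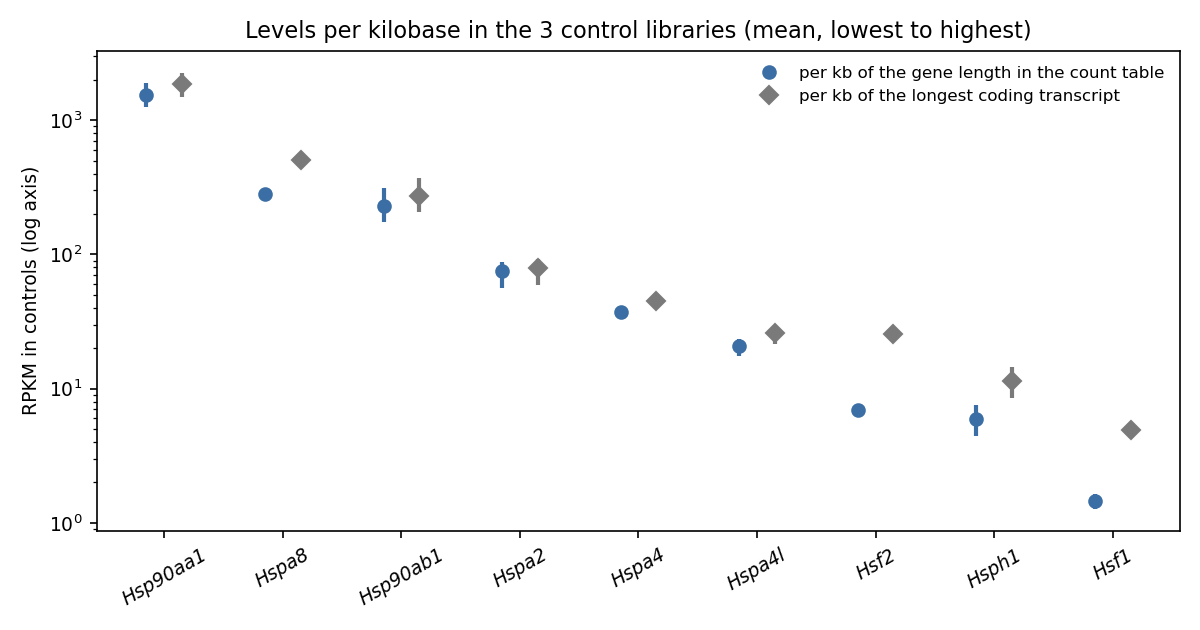
RPKM in the 3 control libraries (log axis), mean with a line from the lowest to the highest library, per kilobase of the gene length in the count table (blue circles) and of the longest coding transcript (grey diamonds). Hsp90aa1 leads on both lengths, and Hsf2 shifts most between them, from 6.88 to 25.4 RPKM.

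Heat shock elements were looked for in promoter windows of 300 bases, from 250 before to 50 after each RefSeq start (GRCm38.p6). Windows were given for 6 of the 10 members; Hspa8, Hsp90aa1, Hsp90ab1 and Hsf1 had no entry. The letters searched were GAANNTTC and TTCNNGAA, each of which reads the same on both strands and which can overlap by sharing 3 bases. Of all 32817 windows, 15.1% held at least 1 of them, and 0.603% held 3 units in a row. Hspa2, Hspa4, Hspa4l, Hspa1l and Hsf2 held none in this window. By its position in the count table, however, Hspa2 starts at 76404176, so most of its window (76404120 to 76404419) lies within the gene. Hspa4l starts at 40744495, and all of its window (40745363 to 40745662) lies within the gene. Sequence before these 2 gene starts was thus searched only in small part for Hspa2 and not at all for Hspa4l. Hsph1 had 2 RefSeq starts. In the window printed here it held a TTCNNGAA unit 54 bases before the start and a run of 3 units that begins 15 bases after it. Counted from the other start the same matches lay 33 bases before and 36 bases after. In the count table Hsph1, on the minus strand, starts at 149636376, so these RefSeq starts and matches all lie within the gene. Hspa1a and Hspa1b each held a GAANNTTC unit 104 bases before the start. The windows of Hspa2, of Hsph1 and a stretch of Hspa1b are shown to set the meiotic gene beside heat-inducible relatives, with matches in capitals.
Hspa2, GRCm38.p6 chr12:76404120-76404419, plus strand, 300 bases: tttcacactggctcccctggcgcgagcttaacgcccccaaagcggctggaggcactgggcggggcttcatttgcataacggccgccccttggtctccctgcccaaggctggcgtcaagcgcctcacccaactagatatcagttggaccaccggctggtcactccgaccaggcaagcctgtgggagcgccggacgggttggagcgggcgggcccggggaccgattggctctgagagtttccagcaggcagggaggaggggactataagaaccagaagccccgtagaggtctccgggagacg
Hsph1, GRCm38.p6 chr5:149636266-149636565, minus strand, 300 bases: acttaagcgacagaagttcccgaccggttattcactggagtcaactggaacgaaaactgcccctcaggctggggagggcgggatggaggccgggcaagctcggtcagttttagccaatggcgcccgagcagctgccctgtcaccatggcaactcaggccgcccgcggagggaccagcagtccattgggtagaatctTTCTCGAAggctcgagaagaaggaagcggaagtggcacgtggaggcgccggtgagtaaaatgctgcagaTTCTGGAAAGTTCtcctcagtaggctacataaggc
Hspa1b, GRCm38.p6 chr17:34959315-34959362, minus strand, 48 bases: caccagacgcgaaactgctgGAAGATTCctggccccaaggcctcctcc
A match is a description of letters, and none of these data measured binding. In these libraries Hspa2 and Hsph1 did not differ detectably between genotypes, and at most 27 reads per library were counted for Hspa1b.

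The partners of the members were examined in lists of related genes. Of 18 J-domain genes, which stimulate Hsp70, 11 were tested (median log2 fold change 0.18) and 1 was higher. It was Dnaja2, at 456, 500 and 523 CPM in controls and 703, 725 and 622 CPM in Eef1g-cKO libraries (0.47 ± 0.15, adjusted p = 0.0443). Its groups did not overlap, but the call was lost in 13 of 17 other settings, among them the fits without control replicate 1 (adjusted p = 0.166), 2 (0.134) or 3 (0.106) and without Eef1g-cKO replicate 1 (0.113) or 2 (0.101). The heat-inducible Dnajb1 was at 55.7 ± 18.1 and 66.0 ± 16.6 CPM (adjusted p = 0.696). Of 10 Hsp70 co-chaperones 8 were tested (median -0.20) and 1 was lower, Bag3, an exchange factor of stress-induced autophagy that is named here although its mean of 12 reads lay under the limit set for naming a gene. Bag3 had 22, 24 and 24 reads in controls and 2, 0 and 0 in Eef1g-cKO libraries. The control level was 31.0 times the Eef1g-cKO level, with an exact 95% counting interval from 8.28 to 261 (edgeR, adjusted p = 0.00997, and 0.0782, 0.0548 and 0.0563 without control replicates 1, 2 and 3). Both Eef1g-cKO reads came from replicate 1, so without that library the group was at 0, and without replicate 2 the fitted log2 fold change was -3.69 in place of -4.65.

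Of 20 Hsp90 co-chaperones 17 were tested (median 0.01), with 1 higher. It was Ptges3, which encodes p23, at 417, 584 and 629 CPM in controls and 881, 784 and 711 CPM in Eef1g-cKO libraries (0.54 ± 0.17, adjusted p = 0.0392). All Eef1g-cKO values were above all controls, but 12 of 17 other settings did not call it, among them the fits without control replicate 1 (adjusted p = 0.201), 2 (0.0855) or 3 (0.0548) and without Eef1g-cKO replicate 1 (0.142) or 2 (0.064). Chordc1, a heat-inducible partner of Hsp90, was at 62.9 ± 7.90 and 112 ± 18.0 CPM (adjusted p = 0.0501). Fkbp4 went the other way, at 87.3 ± 18.1 and 43.6 ± 16.9 CPM (-0.97 ± 0.33, adjusted p = 0.0571). In this list edgeR gave 2 higher and 2 lower at an unadjusted p under 0.05. DESeq2 and limma-voom each called 2 higher and 1 lower. Of 9 small heat shock protein genes 4 had no read and only Hspb11 was tested and higher, at 97.4, 111 and 123 CPM in controls and 304, 273 and 168 CPM in Eef1g-cKO libraries (1.18 ± 0.23, adjusted p = 0.0023). Hspb11 is also known as Ift25, a subunit of intraflagellar transport. Among 6 other heat shock factor and regulator genes 3 were tested and 0 were called by edgeR, DESeq2 or limma-voom, or at an unadjusted p under 0.05.

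Genes that HSF1 induces on heating lay on both sides of 0. Of 18 listed, which include 4 members, 14 were tested, 0 were higher and 3 were lower by edgeR (Hspa8, Bag3 and Hspe1). Before adjustment 2 were higher and 5 lower at p under 0.05, and by DESeq2 and by limma-voom alike 2 were higher and 4 lower. The median was 0.03, with 8 values above 0 and 6 below. Those above 0 at an unadjusted p were Hsp90aa1 and Chordc1, and those below 0 were Hspa8, Bag3, Hspe1, Fkbp4 and Cacybp. Hspe1, the mitochondrial partner of Hsp60, was at 817, 882 and 961 CPM in controls and at 323, 439 and 377 CPM in Eef1g-cKO libraries (-1.22 ± 0.16, adjusted p = 7.08e-05). Its chaperonin partner Hspd1 was not called.

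Of the 8 listed paralogs of the endoplasmic reticulum and mitochondria, all were tested, 2 were higher, 1 was lower (Hspe1) and 5 were not called, with a median log2 fold change of 0.43. Hspa5, the Hsp70 of the endoplasmic reticulum, was at 1889, 1788 and 1547 CPM in controls and at 3999, 4076 and 5373 CPM in Eef1g-cKO libraries (1.36 ± 0.15, adjusted p = 8.43e-06). Hsp90b1, the Hsp90 of the same compartment, was at 1695, 1290 and 1298 CPM in controls and at 2267, 2437 and 2885 CPM in Eef1g-cKO libraries (0.82 ± 0.15, adjusted p = 0.00117). The mitochondrial Hspa9 was at 274 ± 33.8 and 390 ± 34.7 CPM (adjusted p = 0.0566). Hspa5 was called in all 17 other settings and Hsp90b1 in 16. Whether these changes differ from those of Hspa8 and Hsp90ab1 was not tested. The summed L/Z marker level was higher in Eef1g-cKO libraries as well, and its part in the higher Hspa5 and Hsp90b1 was not tested.

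Partners of HSPA2 in germ cells were all below 0 and 0 were called (4 of 4 tested, median -0.63). At an unadjusted p under 0.05 edgeR gave 3 lower, and DESeq2 and limma-voom called 0. Cdk1 was at 209 ± 11.0 CPM in controls and 204 ± 26.0 CPM in Eef1g-cKO libraries (adjusted p = 0.915), and Ccnb1, its cyclin, at 203 ± 13.6 and 137 ± 25.5 CPM (adjusted p = 0.0871). Bag6, which stabilises HSPA2 protein, was at 23.4 ± 5.85 and 8.48 ± 3.47 CPM (-1.40 ± 0.57, adjusted p = 0.116), and Shcbp1l, a spindle partner, at 76.7 ± 4.34 and 46.6 ± 6.00 CPM (adjusted p = 0.125). Under 4 other settings 1 of the 4 was called. Immediate early genes, which enzymatic dissociation of tissue is known to induce, were tested for 10 of 12 listed, and 2 were called lower by edgeR. All 10 values lay below 0 (median -1.09). The called genes were Fos at 253 ± 85.6 and 84.7 ± 33.7 CPM (adjusted p = 0.00262) and Egr1 at 163 ± 21.9 and 70.5 ± 29.3 CPM (adjusted p = 0.00921). The Egr1 call was lost without control replicate 3 (adjusted p = 0.0633). It was also lost with a GC content correction, without or with replicate number as a term (0.0592 and 0.0756). The immediate early gene levels moved in the same direction as Hspa8, Hsp90ab1 and Bag3, and their part in those results was not tested.

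**Figure D5:**
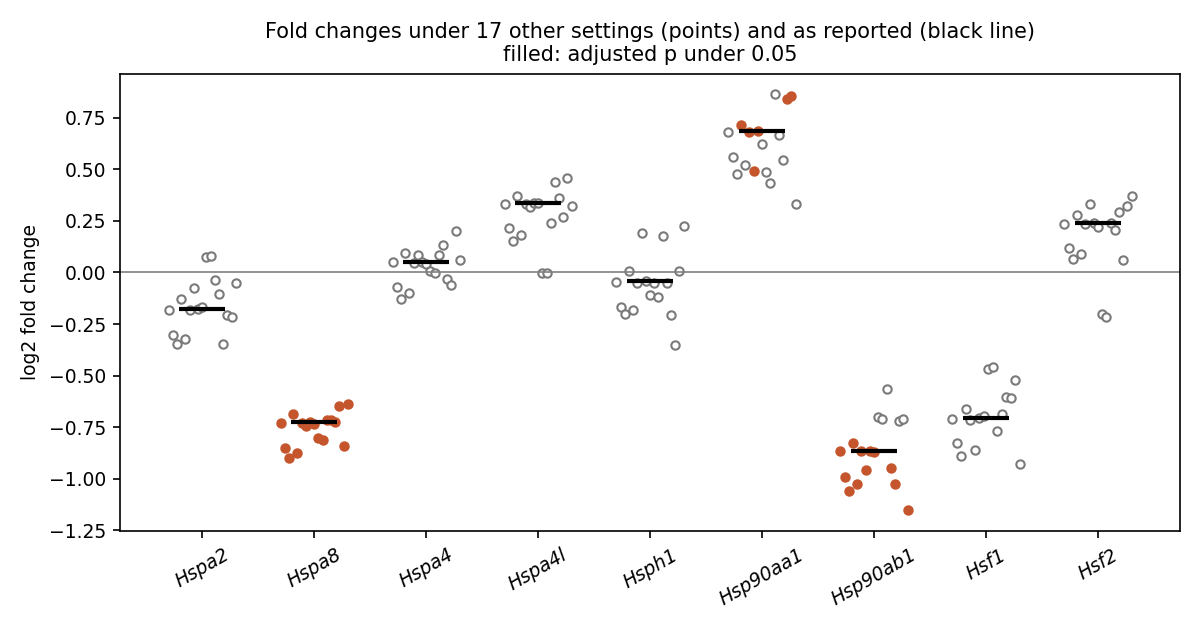
Log2 fold changes of the 9 tested members as reported (black lines) and under 17 other settings (points; 16 for Hsf1), filled where the adjusted p is under 0.05. Hspa8 is filled throughout, Hsp90ab1 in 12 settings and Hsp90aa1 in 6, and the points of Hspa2, Hspa4, Hspa4l, Hsph1 and Hsf2 lie on both sides of 0.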

How the data were processed

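RNA of FACS-enriched L/Z spermatocytes was amplified as full-length cDNA without molecular identifiers, so PCR copies count as reads. The authors trimmed reads with fastp, aligned them to GRCm38 with HISAT2 and counted them per gene with featureCounts, and deposited whole-number counts that were neither scaled nor pooled. Handling of strand and of multiply aligned reads is not given in the sources used here. Of 54532 genes, 8513 passed filterByExpr (minimum count 10, total 15). They were scaled by TMM and tested with edgeR 4.0.16 in R 4.3.3 (robust quasi-likelihood F test, genotype as the only term, Benjamini-Hochberg adjustment over all tested genes). CPM and RPKM were computed from the counts, and ratios from reads plus 0.5. The members and lists were chosen with earlier results of these data known. Named genes are the members, Eef1g, 5 fixed paralogs, and in each list up to 3 called genes per direction with a mean of at least 20 reads, with the 5 genes most like Hspa2 (mean of at least 50 reads); other genes are named to describe their list. Genes with a list role in the text but no call were chosen after their values were seen. Alternatives were scaling by RLE, by upper quartiles or by totals alone, other filters, DESeq2 1.42.0, limma-voom 3.58.1, non-robust estimation, a replicate block, a GC content offset and leaving out each library. Promoter sequences are from RefSeq and transcripts from GENCODE M21, in which all 10 members had the table's position and strand. No 2 libraries agreed within sampling noise (chi-square per degree of freedom at least 6.37).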

Additional observations from a re-analysis of the deposited data

How the results depend on the processing

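The number of members higher in Eef1g-cKO was 0 as reported and 1, always Hsp90aa1, with no low-count filter, DESeq2, limma-voom with quality weights and non-robust estimation, and 0 to 1 when 1 library was left out. The number lower was 2 as reported, 1 with a GC content offset, 1 with this offset and the replicate block, and 1 to 2 with a library left out; Hspa8 was among them each time and Hsp90ab1 was the gene lost. The median log2 fold change of the members stayed within the spread between libraries, from -0.21 to 0.09. Signs turned only for members without a call: Hspa2 with the GC offset (0.0753, and 0.0792 with the block), Hspa4l (-0.00379 and -0.00415), Hsf2 (-0.20 and -0.22), Hspa4 with upper-quartile (-0.0715) or library-total scaling (-0.13), at least 10 reads in every library (-0.10), the GC offset with the block (-0.00278) and left-out libraries (-0.0585 to 0.20), and Hsph1 with no filter (0.00832), limma-voom (0.19) and left-out libraries (-0.35 to 0.22). The log2 ratio of Hsph1 to Hspa4 ran from -0.36 to 0.18 with a library left out, the latter without Eef1g-cKO replicate 3. The causes were not tested. No other ratio changed direction with 1 read added to each gene, with reads of copies added or with a library left out. The GC content offset, which moved the fold changes of single members, was not applied to the ratios. Replicate numbers did not pair the libraries (correlations of deviations between same-numbered libraries of -0.0371, 0.0192 and -0.0486); with a replicate block 2 members were lower, 0 were higher and the median was -0.11, and 496 genes in all were higher and 377 lower, against 664 and 512. Under the GC offset, alone or with the block, 442 and 336 genes were higher, against 337 with library totals alone, which called 617 lower. Upper-quartile scaling called 463 higher and 639 lower. The median of all genes, -0.05 as reported, was -0.17 with upper quartiles, -0.22 with totals and -0.30 without the filter. With a library left out, the genes called higher numbered 371 to 834 and those called lower 231 to 668. Per kilobase of the longest coding transcript, levels moved beyond the spread for Hspa8 (509 RPKM), Hspa4 (44.8), Hspa4l (25.8), Hsf2 (25.4), Hsph1 (11.3) and Hsf1 (4.89). Hsf1 could not be fitted with at least 10 reads in every library. Intervals and limits for low counts cover counting error only. Hsf1, at 6 to 21 reads per library, had an SE of 0.75 on the log2 scale.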
